A study of Danio rerio with 2 samples.

Results

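The genes described here encode neuropeptide precursors and the proteins that load and process them in secretory granules. They were taken by symbol from a list of 35, of which 34 were found in the deposited feature tables, on 35 entries because scg5 has 2 gene identifiers. The symbol not found was scg2a, so of the listed secretogranin 2 genes only scg2b is described. The tables hold 25435 features in all. The entries comprise 26 for peptides, 6 for granins and 3 for processing enzymes. The question was which type of sorted brain cell held each transcript, and how the levels compared between the genotypes.

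Cells came from adult zebrafish brain, dissociated with papain and sorted by fluorescence after dead cells had been removed with a dye. All fish carried a Gal4 insertion at gpr85, which encodes an orphan receptor: 1 allele in the control (gpr85Gal4/+) and both alleles in the knockout (gpr85GAL4/GAL4). Each genotype had 1 droplet library, made with the 10x Genomics 3′ kit (v3), so every comparison is between libraries and no test between genotypes was possible. The sort was for cells in which the gpr85 locus drove the reporter, but a reporter transcript was not found in every cell. The number of brains pooled for a library is not given in the sources used here.

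The control library held 19368218 unique molecular identifiers (UMIs, 1 per captured transcript) and the knockout library 17646062. Barcodes were taken as cells from 1000 UMIs and 500 genes upward when no more than 15% of UMIs were mitochondrial, and 3957 control and 3147 knockout cells were kept after removal of likely doublets. Their median depth was 2547 and 2834 UMIs. Only 8 cell barcodes occurred in both libraries. The reporter sequence H2B-mGL occurred in 90.5% of control cells and in 97.3% of knockout cells, at 12081 and 25425 CPM (UMIs per 1000000 UMIs of the same cells). Transcripts of gpr85 stood at 145.5 CPM in the control against 108.4 CPM in the knockout. This measure reads 3′ ends, and the place of the insertion in the gene is not given in the sources used here, so it does not check the labels.

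Neuropeptides are cut from larger precursors, packed with granins into dense granules, and released to act on G-protein-coupled receptors, usually beside a fast transmitter. Granins help form the granules, and prohormone convertases and carboxypeptidase trim the precursors inside them. In the fish brain most peptide neurons lie in the hypothalamus and in scattered forebrain and brainstem groups, while cerebellar granule cells are small glutamatergic neurons.

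Cells were clustered without the genes described here, and clusters were named from marker genes. Granule-like cells made up most of the material: 1948 control and 1842 knockout cells in clusters 1, 2, 3 and 4, 533 and 157 in clusters 6 and 14, and 191 and 541 in clusters 7 and 10. Further named classes were GABAergic neuron-like cluster 11 (89 and 44 cells), habenula neuron-like cluster 13 (24 and 88) and microglia-like cluster 15 (36 and 31). A reporter UMI was found in 96.0% of cells of clusters 1, 2, 3 and 4 and 93.8% of cluster 13. By library, cluster 13 had 79.2% in the control and 97.7% in the knockout, at 4675 and 20200 reporter CPM. The share was 78.2% in cluster 11 and 50.7% in cluster 15. Cluster 11 carried 10 of 13 GABAergic markers, but also 3 habenula, 3 hypothalamic and 2 glutamatergic markers. Cluster 9 (212 and 84 cells, led by cbln2a, nfatc1, CT573817.1, lmo4b and irx1a) and cluster 12 (77 and 44 cells, led by tgfa, lmo4a, otofa, nefla and trarg1a) met the naming rule for no marker set and are called by number.

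Of the 35 entries, 33 had a UMI in kept cells and 22 had at least 100. Those 22 were 14 of the 26 peptides and 8 of the 9 granin and enzyme entries. A gene was called concentrated when its CPM in the highest class was at least 4-fold above its CPM in all other kept cells. All 14 peptides with at least 100 UMIs were concentrated, against 3 of the 8 granins and enzymes, so 17 of 22 in all. Among all 12978 genes with that many UMIs, 24.3% were concentrated. The minimum of 100 also counted the UMIs of the highest class. Several peptides reached it only through that class, such as tac3a (266 of 275 UMIs), cckb (1193 of 1205) and penka (370 of 388). For them the call was largely fixed by the minimum, so these counts are a description only. GABAergic neuron-like cluster 11 was the highest class for 8 of the 14 peptides, and for 1.87% of the 12978 genes at the same fold. The other 6 were spread over cluster 12 (uts1 and adcyap1b; 2.05% of genes), habenula neuron-like cluster 13 (kiss1; 3.3%), cluster 9 (galn; 0.724%), granule-like clusters 6 and 14 (tac1; 0.832%) and microglia-like cluster 15 (nts; 5.6%).

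**Figure D1:**
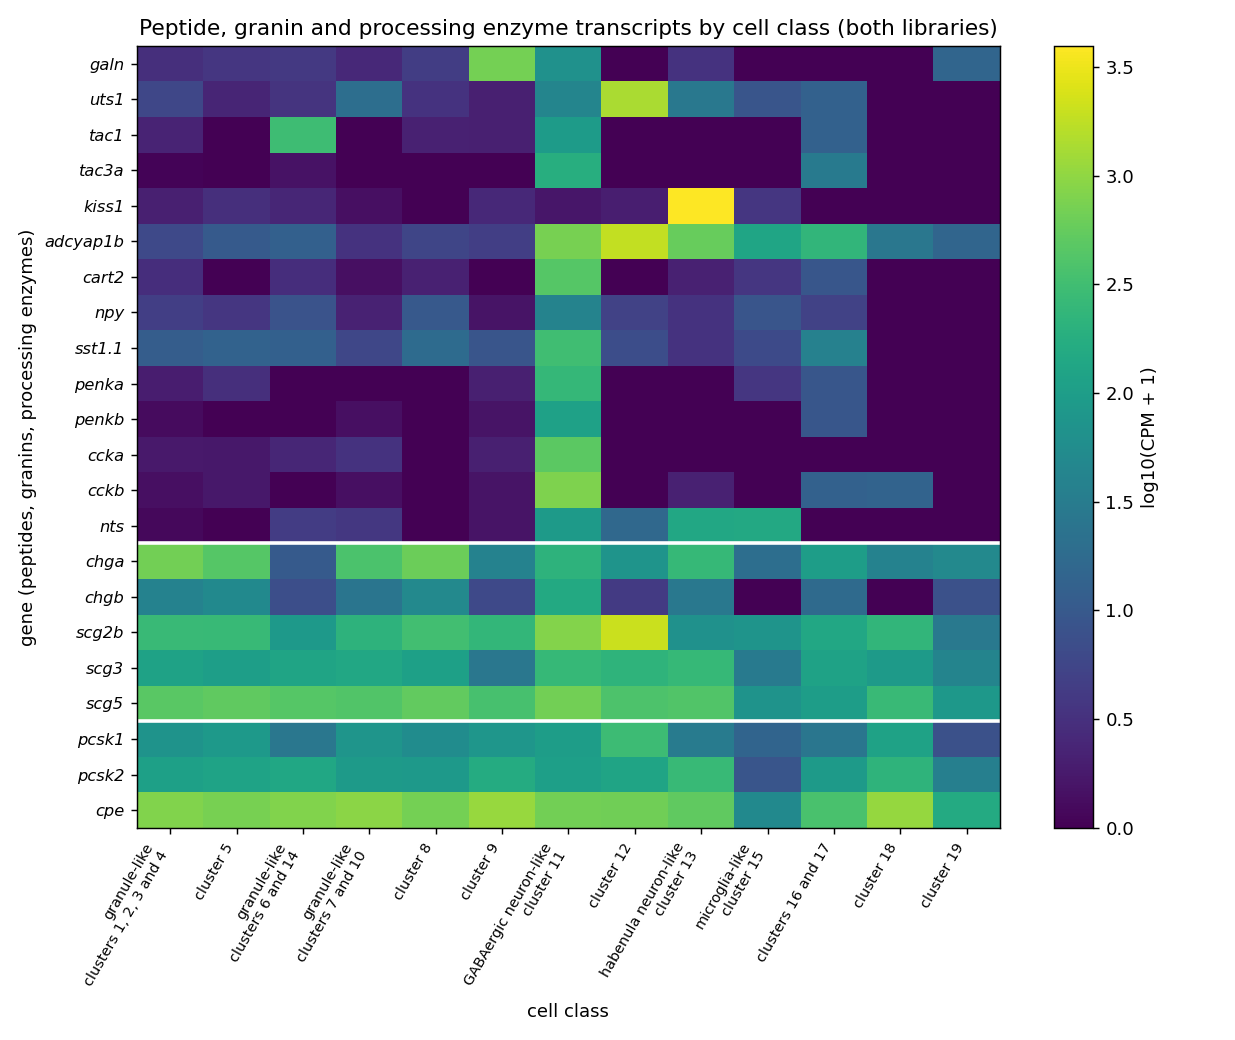
Heat map of CPM on a log10(CPM + 1) scale for the 22 genes with at least 100 UMIs in kept cells (y axis) in the 13 classes of at least 20 cells (x axis), libraries summed. White lines separate peptides, granins and processing enzymes. The peptides have 1 or a few bright classes each, such as kiss1 at 3956 CPM in habenula neuron-like cluster 13, whereas scg5 and cpe are seen in all 13.

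Few cells carried the peptides. A cell was called rich in a peptide when it held at least 5 of its UMIs, and 392 of 7104 kept cells (5.52%) met this for at least 1 peptide, 229 in the control and 163 in the knockout. Clusters 9, 11, 12 and 13 held 360 of the 392 although they made up 9.32% of kept cells. Rich cells were also deeper, with a median of 8080 UMIs against 2602 in the others, so all cells were also thinned to 1000 UMIs. The mean number of UMIs of all listed peptides per thinned cell was then 4.89 in habenula neuron-like cluster 13, 3.35 in cluster 12, 2.91 in cluster 11 and 0.66 in cluster 9, against 0.044 in granule-like clusters 1, 2, 3 and 4. Per class, 100 of 112 habenula neuron-like cells, 98 of 121 cells of cluster 12, 110 of 296 cells of cluster 9 and 52 of 133 cells of cluster 11 were rich. In granule-like clusters 1, 2, 3 and 4 the count was 1 of 3790.

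Galanin transcripts (galn) marked cluster 9. This peptide is made by hypothalamic and brainstem neurons and acts through G-protein-coupled receptors. Cluster 9 held 1311 of the 1452 galn UMIs in kept cells, at 695 CPM against 6.49 CPM in all other cells, a 107-fold difference. The control cells of the cluster stood at 728 CPM (95% Poisson interval 684 to 774) and the knockout cells at 605 CPM (539 to 677). In the control 184 of 212 cells had a galn UMI, and in the knockout 66 of 84, with a median of 3 UMIs per cell in each library and highest values of 26 and 21. After each cell was thinned to 1000 UMIs the shares were 43.4% and 36.9%. In granule-like clusters 1, 2, 3 and 4, which serve as background, 17 of 3790 cells had a galn UMI, at a median depth of 2566.5 UMIs against 6267.5 in cluster 9.

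The galn cells mostly carried glutamate transporter genes. Of 112 galn-rich cells, 110 lay in cluster 9. At least 2 UMIs of vesicular glutamate transporter genes were found in 100 of them, and 3 had that many UMIs of genes for GABA synthesis or transport (below, GABA genes). The same minimum of 2 UMIs was used for all statements on transmitter genes per cell. None of the 110 rich cells of cluster 9 was rich in another peptide of the list. The class with the next highest level was cluster 11, at 65.9 CPM from 99 UMIs, of which 1 control cell held 38 and 1 knockout cell 55.

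Cluster 12 combined urotensin 1 (uts1), a fish relative of urocortin in the corticotropin-releasing hormone family, with PACAP (adcyap1b), a stimulatory peptide of the secretin family. It held 1339 of 1541 uts1 UMIs, at 1373 CPM against 8.93 CPM elsewhere (154-fold). The uts1 level was 1334 CPM (1243 to 1431) in the control and 1432 CPM (1315 to 1557) in the knockout. The intervals overlapped, and they cover counting error only. Per cell, uts1 ranged from 0 to 79 UMIs in the control (median 5) and from 0 to 92 in the knockout (median 3.5).

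PACAP transcripts were less restricted. Cluster 12 held 1821 of 3614 adcyap1b UMIs at 1867 CPM, 23.6-fold above all other cells, with 1816 CPM (1708 to 1928) in the control and 1946 CPM (1809 to 2090) in the knockout. Cluster 11 followed at 722 CPM and habenula neuron-like cluster 13 at 567 CPM. Clusters 16 and 17 were at 230 CPM. Of 155 adcyap1b-rich cells, 77 lay in cluster 12, and 143 of the 155 had vesicular glutamate transporter UMIs. Both peptides were often in the same cell: 41 cells were rich in uts1 and adcyap1b, which is 63.1% of the 65 uts1-rich cells and 26.5% of the adcyap1b-rich cells. Of these 41, the control held 26 and the knockout 15.

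Outside cluster 12, uts1 passed the free RNA threshold described further on in cluster 11 and in granule-like clusters 7 and 10. Clusters 7 and 10 held 48 uts1 UMIs at 19.2 CPM, spread over 30 of 732 cells. Granule-like clusters 1, 2, 3 and 4 were at 4.80 CPM.

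Kisspeptin transcripts (kiss1) were almost all in habenula neuron-like cells. In zebrafish kiss1 is a known marker of the ventral habenula, a relay from the forebrain to the midbrain raphe. Cluster 13 held 3412 of 3436 UMIs, at 3956 CPM against 1.06 CPM elsewhere. The level was 4188 CPM (3909 to 4480) in the control and 3886 CPM (3737 to 4039) in the knockout. All 100 kiss1-rich cells lay in this cluster, 19 from the control and 81 from the knockout, and 79 of them had vesicular glutamate transporter UMIs. The median per cell was 36.5 UMIs in the 24 control cells and 26 UMIs in the 88 knockout cells.

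The cells of this cluster differed between libraries in the other peptides they carried, but for adcyap1b this depended on how habenula cells were chosen. Its adcyap1b level was 159 CPM (109 to 225) in the control and 691 CPM (629 to 757) in the knockout, with a UMI in 7 of 24 and 73 of 88 cells. After thinning, 12.5% and 48.9% of the cells had an adcyap1b UMI. In the cells gated on habenula markers, 50 in the control and 93 in the knockout, adcyap1b stood at 784 CPM (702 to 874) and 701 CPM (640 to 765), so the difference was not seen there. The gate took 110 of the 112 cells of cluster 13, and also 11 cells of cluster 11 and 10 of clusters 16 and 17. Of the 329 adcyap1b UMIs of the gated control cells, 102, 69 and 63 were in 3 cells of cluster 11. The gated control level was thus largely that of cells outside cluster 13. Neurotensin (nts), a peptide that modulates dopamine neurons in mammals, went the opposite way in cluster 13. It stood there at 578 CPM (477 to 693) in the control and 9.07 CPM (3.33 to 19.7) in the knockout, from 116 and 6 UMIs. In the gated habenula cells nts stood at 277 CPM (229 to 332) and 8.55 CPM (3.14 to 18.6). Of these cells, 4 in the control and 0 in the knockout were rich in nts. Of 44 cells rich in kiss1 and adcyap1b, 41 came from the knockout, and all 4 cells rich in kiss1 and nts came from the control. With 24 control cells and 1 library per genotype, a difference between genotypes and a difference in the part of the habenula recovered cannot be told apart.

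Substance P precursor (tac1) was the only one of the 14 peptides whose highest class was granule-like. Clusters 6 and 14 held 606 of 767 UMIs, at 297 CPM against 7.47 CPM elsewhere (39.7-fold). Cluster 6 was at 332 CPM and cluster 14 at 96.1 CPM. The level was 325 CPM (297 to 355) in the control and 221 CPM (183 to 264) in the knockout. These intervals did not overlap, but they cover counting error only, and the difference was not tested. The share of cells with a tac1 UMI was 40.2% and 40.8%, and 21.4% and 15.3% after thinning. Rich cells numbered 19 in the control and 1 in the knockout. A single GABAergic control cell with 102 tac1 UMIs made up most of the 142 found in cluster 11.

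The peptides that peaked in GABAergic neuron-like cluster 11 rested on a handful of cells. Proenkephalin transcripts, the source of opioid enkephalins, came from penka with 370 of 388 UMIs in the cluster and penkb with 169 of 209. The penka UMIs were in 3 rich control cells (221, 101 and 20) and 1 knockout cell (21). For penkb there were 5 rich control cells (70, 43, 23, 9 and 5 UMIs) and 1 knockout cell (13), and 1 further knockout cell with 25 UMIs in cluster 20. All 4 penka-rich cells had GABA genes. So did the 5 penkb-rich control cells, but the penkb-rich knockout cell of cluster 11 had none. The penka cell with 221 UMIs held 16 UMIs of glutamate transporters beside 41 of GABA genes. In the penkb cells with 23 and 9 UMIs these were 3 beside 65 and 7 beside 32.

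Somatostatin (sst1.1), an inhibitory peptide of many GABAergic interneurons, had 461 of 676 UMIs in cluster 11, at 307 CPM (31.6-fold above other cells). Rich cells held 212 and 143 UMIs in the control and 64, 31 and 10 in the knockout, and all 5 had GABA genes. One of them, a knockout cell of 3972 UMIs, held 64 sst1.1 UMIs together with 55 of neuropeptide Y (npy), a feeding-related peptide often found with somatostatin. It was the only npy-rich cell, so that npy stood at 0.97 CPM in the control against 124 CPM in the knockout within the cluster.

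Cholecystokinin, a satiety-related peptide, has 2 genes in zebrafish. Cluster 11 held 745 of 765 ccka UMIs and 1193 of 1205 cckb UMIs. A single knockout cell of 17963 UMIs contributed 708 and 802 of these, together with 47 UMIs of uts1 and all 35 UMIs of crha, which encodes a corticotropin-releasing hormone. That cell also held 86 UMIs of hypothalamic markers and 44 of GABA genes, and none of vesicular glutamate transporters. The other cckb-rich cells held 95, 51, 46, 32, 28 and 19 UMIs in the control and 110 and 8 in the knockout. Those with 95 and 32 had 42 and 131 UMIs of GABA genes and none of glutamate transporters. Those with 51, 46 and 110 had no GABA gene UMI and held 169, 65 and 36 UMIs of habenula markers.

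For cart2, which encodes a CART peptide linked to feeding, cluster 11 held 658 of 688 UMIs. A single knockout cell held 528, with 229 UMIs of GABA genes, none of glutamate transporters and 1 of the reporter. The other rich cells held 47 UMIs in the knockout and 38, 24 and 19 in the control. The cell with 38 had 73 UMIs of GABA genes and none of glutamate transporters. Those with 47, 24 and 19 had 12, 17 and 20 UMIs of glutamate transporters against 9, 4 and 12 of GABA genes. They were also rich in adcyap1b. Neurokinin B precursor (tac3a) had 266 of 275 UMIs in the cluster, in 3 rich control cells (76, 72 and 41) and 1 knockout cell (76). The 3 control cells held 98, 139 and 153 UMIs of habenula markers, 63, 69 and 102 of adcyap1b, and none of GABA genes. In the same order they held 0, 1 and 125 reporter UMIs. The knockout cell differed, with 4 UMIs of habenula markers and none of adcyap1b, GABA genes or glutamate transporters. It was also the penkb-rich knockout cell of the cluster.

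Divided by transmitter genes, cluster 11 had 72 cells with more UMIs of GABA genes and 43 with more of glutamate transporters, while 18 had equal numbers or none. The GABA side held 461 of 461 sst1.1 UMIs, 365 of 370 penka, 156 of 169 penkb, 731 of 745 ccka and 949 of 1193 cckb. Of these, 708 ccka and 802 cckb UMIs were in 1 knockout cell. By rich cells cckb was divided, with 4 on the GABA side and 5 on the glutamate side, which held 244 cckb UMIs. For cart2 the GABA side had 568 of 658 UMIs, 528 of them in 1 cell, and 2 rich cells. On the glutamate side cart2 had 90 UMIs and 3 rich cells. The glutamate side held 1065 of 1084 adcyap1b UMIs, 134 of 137 nts and 73 of 76 for thyrotropin-releasing hormone (trh). The division was made after the cells had been seen, and 31 of the 133 cells lay within 2 UMIs of it. Among the 52 rich cells, 11 had at least 2 UMIs of both transmitter sets, at a median depth of 16982 UMIs against 12040 in the other rich cells. The part of doublets in these 11 was not tested.

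Cells were also gated one by one on summed marker UMIs, which gave 6697 granule, 89 GABAergic, 143 habenula, 36 microglia and 33 radial glia cells and left 106 ungated. With the libraries summed, the gates placed 94.1% of penka, 95.3% of ccka, 89.5% of penkb, 82.6% of cart2 and 79.6% of cckb UMIs in GABAergic cells. These shares rested largely on single cells, with 528 of 688 cart2, 708 of 765 ccka and 802 of 1205 cckb UMIs in 1 knockout cell each. In the control and the knockout the shares were 95.5% and 75.9% for penka, 0% and 97.9% for ccka, and 97.0% and 59.5% for penkb. They were 42.6% and 88.9% for cart2 and 55.8% and 86.7% for cckb. Habenula-gated cells held 99.2% of kiss1 UMIs and 71.3% of tac3a UMIs, at 3040 and 175 CPM. The tac3a share was 98.5% in the control and 0% in the knockout, where all 76 UMIs fell in the granule gate. The granule gate, which asked for no excess over other cells, took 294 of 296 cluster 9 cells and 113 of 121 cluster 12 cells, and with them 96.0% of galn and 91.9% of uts1 UMIs. For sst1.1 it held 61.2% of UMIs, but at 19.9 CPM against 282 CPM in GABAergic cells. Of these 414 UMIs, 212 were in 1 control cell of cluster 11. That cell had 16 UMIs of GABA genes and 9 of glutamate transporters.

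Neurotensin had its highest class value, 147 CPM, in microglia-like cluster 15, but not in cells with microglial transcripts. The 55 UMIs were all in control cells. All came from the 31 cells of that cluster with fewer than 10 microglia marker UMIs, and the 36 cells with 10 or more had none. The 31 cells also held 48 of the 49 adcyap1b UMIs of the cluster. In cluster 11, 128 of 137 nts UMIs were in 1 control cell.

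The remaining 12 peptide entries were too rare to be described by class. The genes cart4 and pmch (melanin-concentrating hormone) had no UMI in 7104 kept cells, which allows a level of up to 0.127 CPM each. The 86 trh UMIs were mainly in 1 control cell with 51 and 1 knockout cell with 22. All 22 UMIs of vip, which encodes vasoactive intestinal peptide, were in 1 control cell of cluster 12, and 15 of 16 prodynorphin (pdyn) UMIs were in 1 control cell. Kept cells held 52 UMIs of cart3, 51 of oxytocin (oxt), 24 of vasopressin (avp), 18 of crhb, 13 of hypocretin (hcrt) and 10 of adcyap1a, and no cell was rich in oxt, avp, crhb or hcrt.

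**Figure D2:**
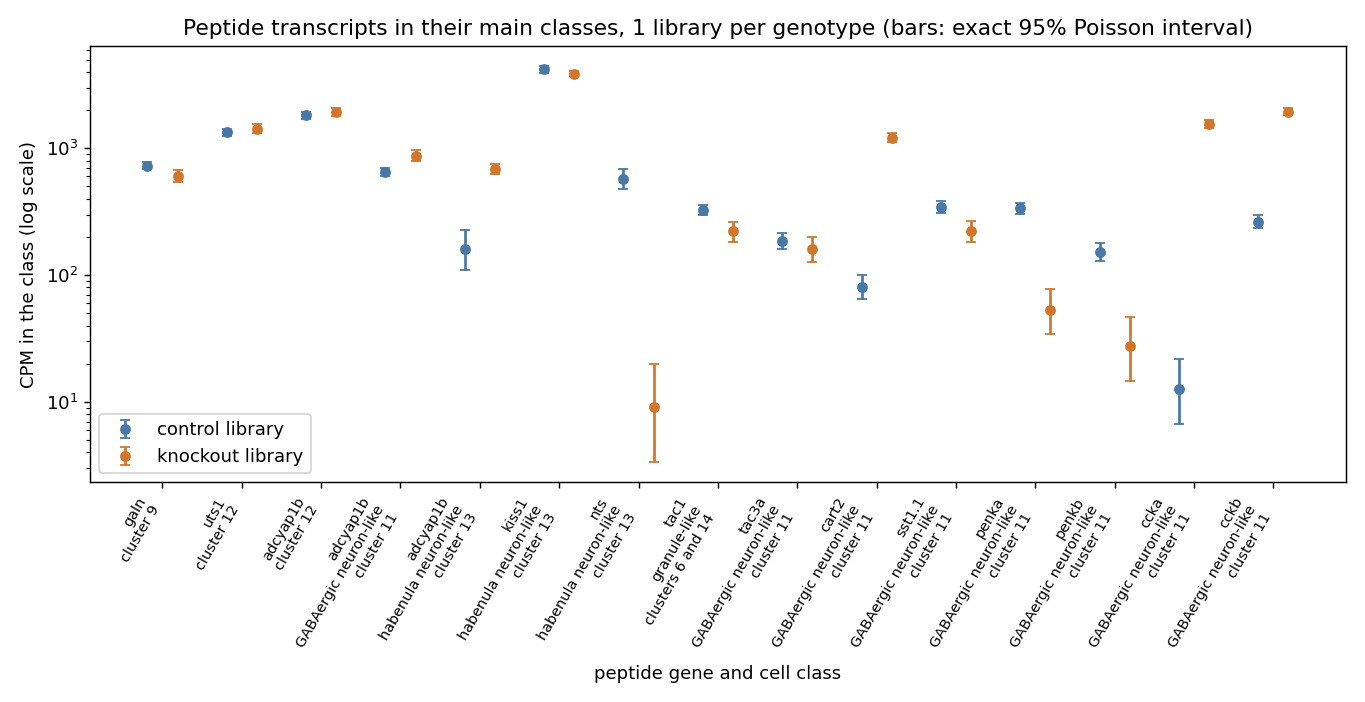
CPM (log axis) of peptide transcripts in the classes that held them, with 1 point per library and exact 95% Poisson intervals as bars. In clusters 9 and 12 the libraries lie close together, whereas in GABAergic neuron-like cluster 11 ccka stands at 12.6 CPM in the control against 1544 CPM in the knockout, most of it from 1 cell.

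Free RNA was read from barcodes with under 100 UMIs, which held 24.4% of control and 29.0% of knockout UMIs. A gene was called above free RNA in a class when it had at least 20 UMIs there and the lower Poisson bound of its CPM passed 10% of its free level, in each library with at least 20 cells of the class. This held in at least 1 class for 23 of the 35 entries, 14 of them peptides. All 23 were among the 33 entries with at least 20 UMIs over all barcodes. Among all genes with that many UMIs 79.7% passed, so there the share of these genes was not above the background. Among all 25435 features 59.1% passed, and the share of the 35 entries was somewhat higher. Neither difference was tested. The 14 peptides were the 13 with at least 100 UMIs other than npy, and trh.

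Several peptides were common in free RNA and scarce in cells. Of the 33 entries with at least 20 UMIs over all barcodes, 8 were at least 2-fold lower in kept cells than in free RNA, against 4.6% of all such genes. They were cart3 (log2 −4.83), npy (−4.49), sst1.1 (−3.55), avp (−2.58), crhb (−2.41), oxt (−2.41), adcyap1a (−2.03) and vip (−1.19), all peptides. At least 2-fold higher were 6 entries, against 9.89% of all genes: crha (2.87), tac3a (2.26), nts (1.68), kiss1 (1.60), cckb (1.15) and ccka (1.00). Again all were peptides, and no granin or enzyme passed 2-fold in either direction with the libraries summed. In each library alone, cart3, npy, sst1.1, crhb and oxt were also 2-fold lower, and tac3a and kiss1 2-fold higher. The other calls did not hold in both libraries. Control values were 1.56 for adcyap1a, −0.03 for avp, −0.68 for vip, 0.18 for cckb and −2.21 for ccka. The knockout value for nts was −0.27. All 35 kept UMIs of crha were in 1 knockout cell. The granin chgb was 2-fold higher in each library alone.

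The free RNA itself differed between libraries. The level of sst1.1 was 609 CPM in the control against 84.0 CPM in the knockout, that of npy 221 and 51.9 CPM, that of cart3 116 and 13.9 CPM, and that of galn 142 and 54.7 CPM. Free kiss1 stood at 18.4 and 75.4 CPM. In granule-like clusters 1, 2, 3 and 4 peptide levels were a small share of these levels: the median over 8 peptides in the control was 3.74% of the free level (range 2.38% to 16.5%), and over 9 in the knockout 2.64% (0.73% to 10.3%). For sst1.1 it was 2.99% and 3.04%, and for npy 2.63% and 2.64%. For other peptides the share differed between libraries, with 7.05% and 1.65% for adcyap1b, 16.5% and 7.53% for uts1, and 3.74% and 10.3% for cart2. In contrast, chga stood in these cells at 281% and 308% of its free level.

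**Figure D3:**
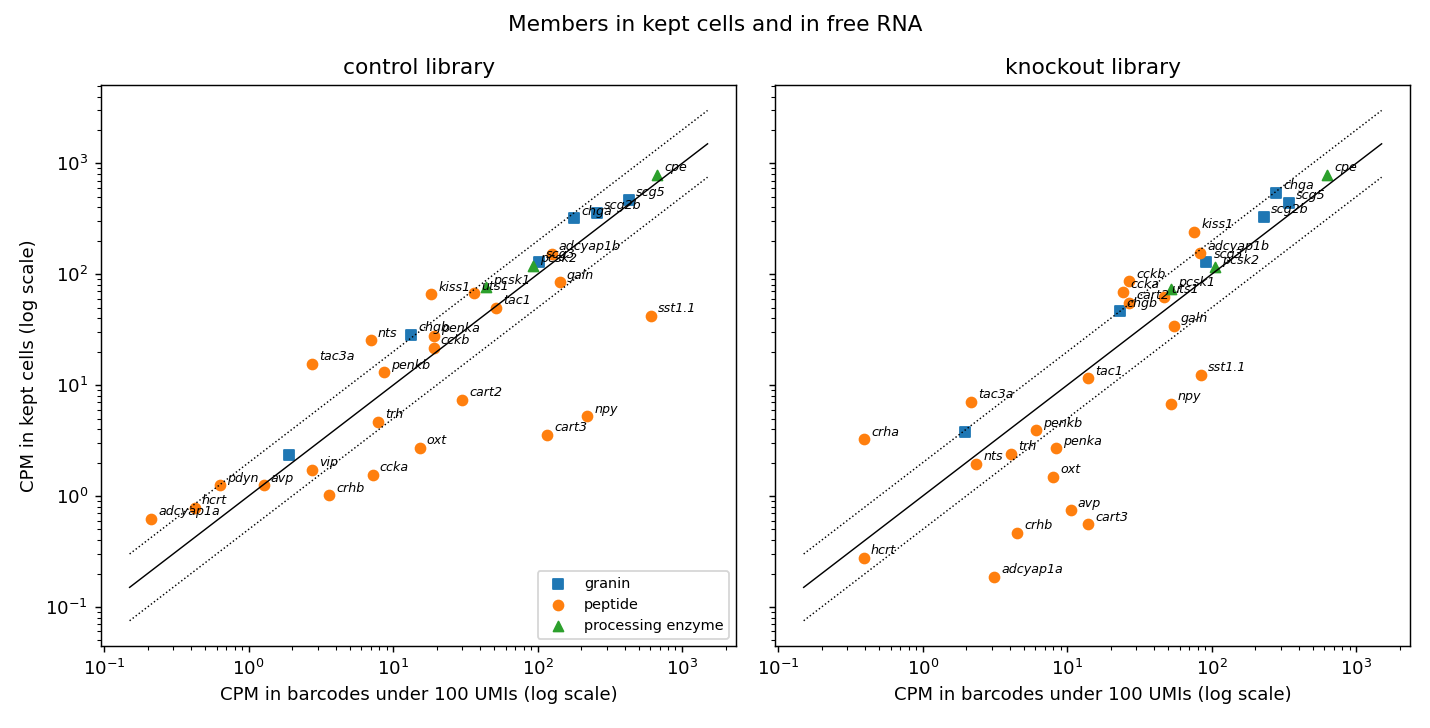
CPM in kept cells against CPM in barcodes under 100 UMIs, on log axes, for each library. The solid line marks equal levels and the dotted lines 2-fold; genes at 0 on either axis are not drawn, and the unlabelled square near 2 CPM is the rarer scg5 entry. In each library sst1.1, npy and cart3 lie far below the lines and kiss1 above them.

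Most granins and enzymes were above free RNA in more classes than the peptides. The call held in 12 classes for cpe, 11 for scg5, 10 each for scg2b, scg3 and pcsk2, 9 for chga, 8 for pcsk1 and 6 for chgb, and in 1 for the rarer scg5 entry. The highest number for a peptide was 5, for adcyap1b. Chromogranin A (chga), an acidic granule protein, had its highest level in granule-like clusters 1, 2, 3 and 4, at 679 CPM. It followed at 605 CPM in cluster 8 (led by creb5b, lzts1, creb5a, sox11a and sema5ba) and 450 CPM in cluster 5 (led by pax2a, en2a, camk1ga, ppp1r1c and en1a). The classes rich in peptides were lower, with 257 CPM in habenula neuron-like cluster 13, 212 CPM in cluster 11, 71.8 CPM in cluster 12 and 38.2 CPM in cluster 9. In granule-like clusters 6 and 14, which held tac1, chga stood at 9.31 CPM from 19 UMIs.

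Secretogranin 2 (scg2b), a precursor of secretoneurin, showed another distribution. It reached 2052 CPM in cluster 12, 7.56-fold above all other cells, and 863 CPM in cluster 11. In habenula neuron-like cells, which had the highest kiss1 level, it stood at 66.1 CPM. Chromogranin B (chgb) was highest in cluster 11, at 152 CPM (5.31-fold), where a single cell held 46 of the 229 UMIs. In that cluster it stood at 58.4 CPM in the control (60 UMIs) and 356 CPM in the knockout (169 UMIs). Its log2 excess over other cells was 1.19 in the control library alone, 3.47 in the knockout library alone and 1.42 in gated GABAergic cells, so the 4-fold call rested on the knockout library and on the cluster. It was at 3.08 CPM in cluster 12. For scg3, which binds chromogranin A in granules, the highest levels were 257 CPM in cluster 13 and 255 CPM in cluster 11, and cluster 9 had 26.0 CPM. The chaperone of convertase 2 (scg5) stood at 672 CPM in cluster 11, 542 CPM in cluster 8 and between 356 and 519 CPM in the granule-like classes and clusters 5, 9, 12 and 13. It stood at 69.3 CPM in microglia-like cluster 15. Its other entry, ENSDARG00000077045, had 71 UMIs in kept cells.

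Of the enzymes, prohormone convertase 1 (pcsk1) was highest in cluster 12, at 287 CPM (4.37-fold above other cells), with 276 CPM in the control against 304 CPM in the knockout. It stood at 30.2 CPM in habenula neuron-like cells. Convertase 2 (pcsk2) was highest in those cells instead, at 261 CPM (2.33-fold), and at 124 CPM in cluster 12. Carboxypeptidase E (cpe) was highest in cluster 9, at 1090 CPM, only 1.43-fold above other cells, and lowest in microglia-like cluster 15 among the 13 classes, at 50.6 CPM. In cluster 12, then, uts1, adcyap1b, scg2b and pcsk1 each had their highest level, while chga and chgb were low there.

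**Figure D4:**
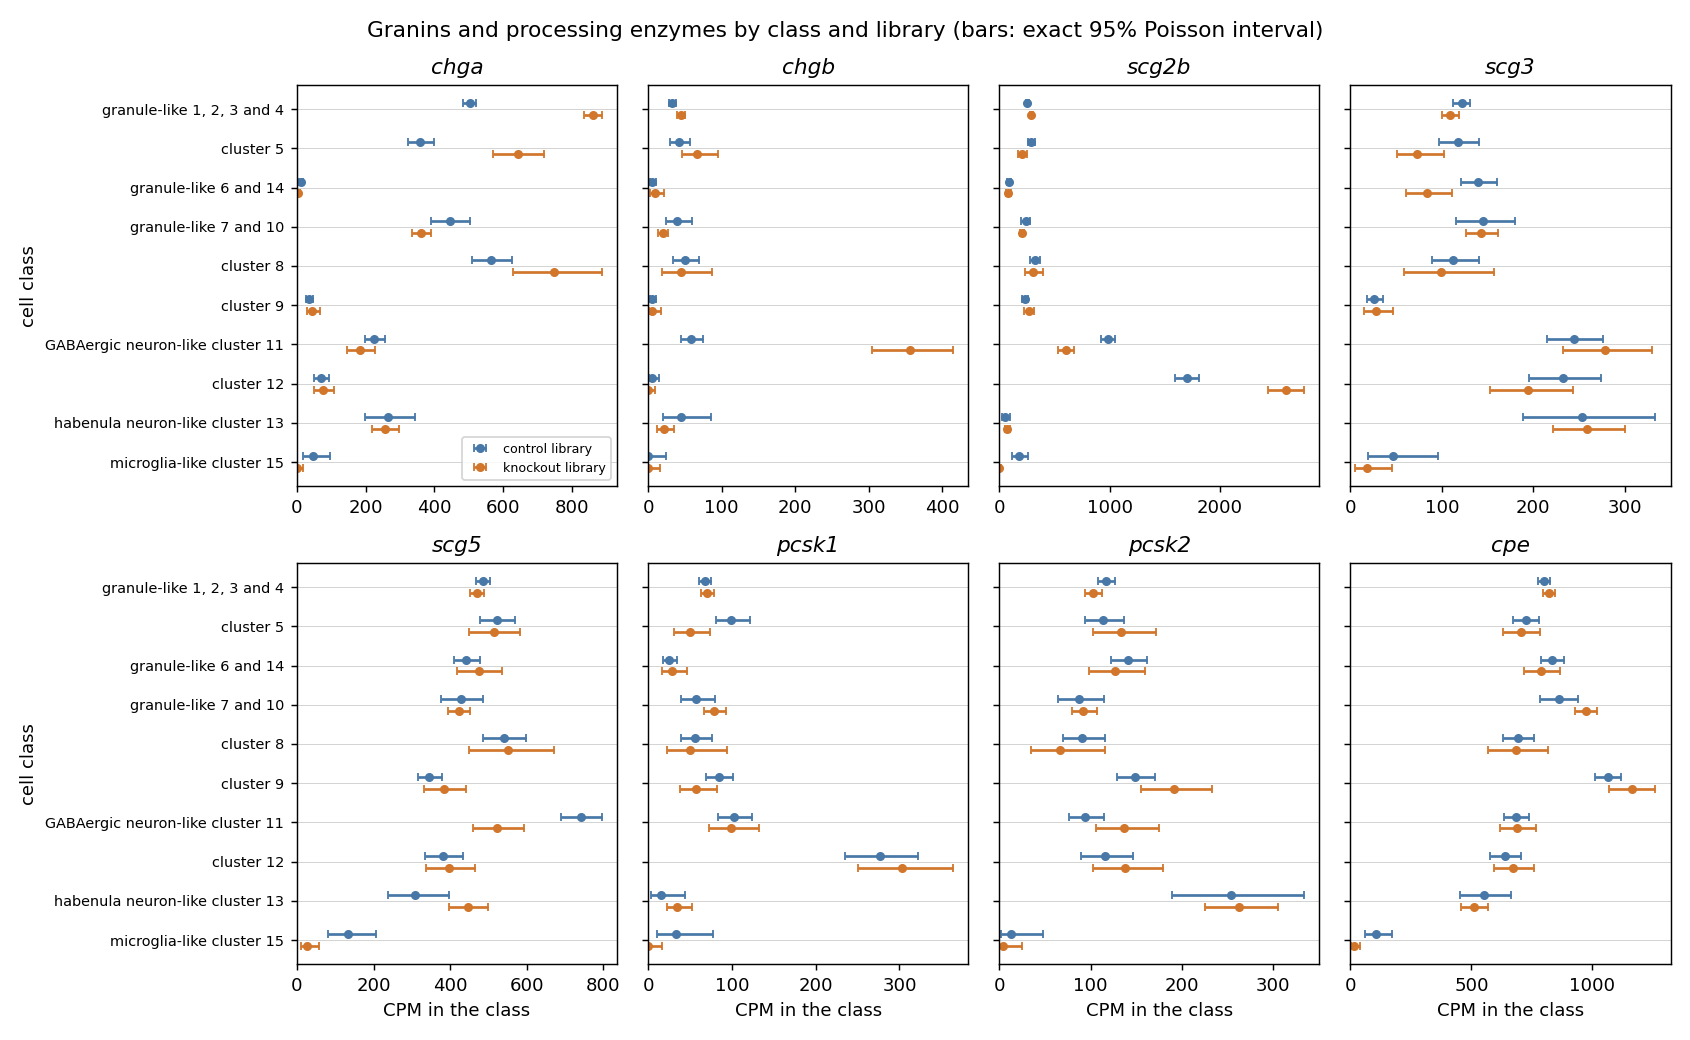
CPM of granins and processing enzymes (x axes, linear and different for each gene) in classes that had 20 or more cells per library (y axis), with exact 95% Poisson intervals as bars. The level of chga is higher in the knockout library in granule-like clusters 1, 2, 3 and 4 and in cluster 5, and that of scg2b stands out in cluster 12.

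Other genes of the pathway were counted from lists chosen with earlier results of these data known. Of 47 further genes for granule formation, processing and release, 46 were found, 38 had at least 100 UMIs and 13 of these (34.2%) were concentrated. The most counted were snap25a and snap25b, which encode membrane fusion proteins, with 81713 and 59784 UMIs, and pcsk1nl, which encodes an inhibitor of convertase 1, with 14085. The highest folds were those of the calcium sensor gene syt5b (161-fold), the vesicular monoamine transporter gene slc18a2 (104-fold) and the calcium sensor gene syt9b (51.2-fold), all in cluster 11.

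Of 66 further genes for peptide precursors and other secreted signals, 56 were found and 10 had at least 100 UMIs, with 6 concentrated. The most counted were bdnf (2222 UMIs), apln (2107) and nucb2a (1738). The highest folds were those of pnoca, the nociceptin precursor, and sst6, a further somatostatin gene, at 90.7-fold and 86.5-fold in habenula neuron-like cells, and of nxph1 at 86.0-fold in cluster 11. Of the receptors for the listed peptides, 49 of 56 symbols were found, 19 entries had at least 100 UMIs and 15 of these (78.9%) were concentrated. The share over all genes with at least 100 UMIs was 24.3%, and the difference of the lists from it was not tested. Here too the minimum counted the UMIs of the highest class. The most counted were crhr1, a receptor for corticotropin-releasing hormone and urotensin 1, with 12609 UMIs, the PACAP receptor gene adcyap1r1a with 6305 on its larger entry, and the opioid receptor gene oprd1a with 3208. The kisspeptin receptor gene kiss1rb reached 342 CPM in habenula neuron-like cells (306-fold), in the class that held kiss1. The other high folds were oprd1b in cluster 19 (165-fold) and sstr1b in cluster 11 (60.2-fold).

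Between libraries, ratios were taken as log2 of knockout over control CPM for genes with at least 100 UMIs, with intervals that cover counting error only. Over all kept cells, 4 of the 22 genes were at least 2-fold higher in the knockout library (2.41% of all 12978 genes) and 7 at least 2-fold lower (2.31%). The median of the 22 was −0.05, against −0.03 over all genes. The 4 were kiss1, cart2, ccka and cckb. The 7 were galn, tac1, tac3a, sst1.1, penka, penkb and nts. All 11 were peptides, and the 8 granins and enzymes lay within 2-fold. The minimum of 100 counted the UMIs of both libraries. Some genes reached it only through the library where they were higher. Examples are ccka (20 control and 745 knockout UMIs), nts (325 and 21) and penka (359 and 29). For them a large ratio was partly fixed by the minimum, so these counts are a description only.

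For kiss1, galn and tac1 the number of cells in the class that held them also differed between libraries. For kiss1 the levels over all cells were 66.0 and 240.3 CPM (log2 1.86, 95% interval 1.75 to 1.98), while habenula neuron-like cells numbered 24 and 88, and within them the ratio was −0.11 (−0.22 to 0.01). In the gated habenula cells, 50 and 93 in number, kiss1 stood at 2005 CPM (1872 to 2145) and 3659 CPM (3519 to 3803). The ratio near 0 thus held for the cluster and not for the gate. Control cells held 841 kiss1 UMIs in the cluster (24 cells) and 841 in the gate (50 cells). The gate therefore spread an equal control sum over more cells. For galn the levels over all cells were 84.2 and 34.4 CPM (−1.29, −1.46 to −1.12). Cluster 9 had 212 and 84 cells and a ratio of −0.27 (−0.46 to −0.08). For tac1 the levels over all cells were 50.1 and 11.5 CPM (−2.12), with 533 and 157 cells in clusters 6 and 14 and −0.56 (−0.86 to −0.27) within them. In cluster 12, uts1 stood at 0.10 (−0.06 to 0.26) and adcyap1b at 0.10 (−0.04 to 0.24). With 1 library per genotype, fewer cells in the brain and fewer cells recovered cannot be told apart.

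For the other peptides, leaving out the cell with the most UMIs was tried after the values had been seen. The ratio of cart2 went from 2.91 to −0.26 (−0.73 to 0.21), and that of cckb from 1.99 to −0.90. For ccka it went from 5.47 to 1.14, which rested on 20 control and 37 knockout UMIs. Among those lower in the knockout, penka went from −3.38 to a value with the interval −2.63 to −1.41 (138 and 29 UMIs), penkb from −1.74 to −0.96, tac3a from −1.14 to −0.44, sst1.1 from −1.76 to −1.05 and nts from −3.70 to −2.98. For tac3a, 1 control and 1 knockout cell tied at 76 UMIs, and the control cell was the one left out. The knockout cell held all 76 knockout UMIs, so the tac3a value depends on this choice. The ratio of npy went from 0.38 to −1.64. For kiss1, galn and tac1 it stayed at 1.80, −1.52 and −1.87. Free RNA levels of sst1.1, npy, tac1 and galn were also lower in the knockout library. With free RNA subtracted the ratio was −1.23 for sst1.1, −1.24 for galn and −2.08 for tac1.

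**Figure D5:**
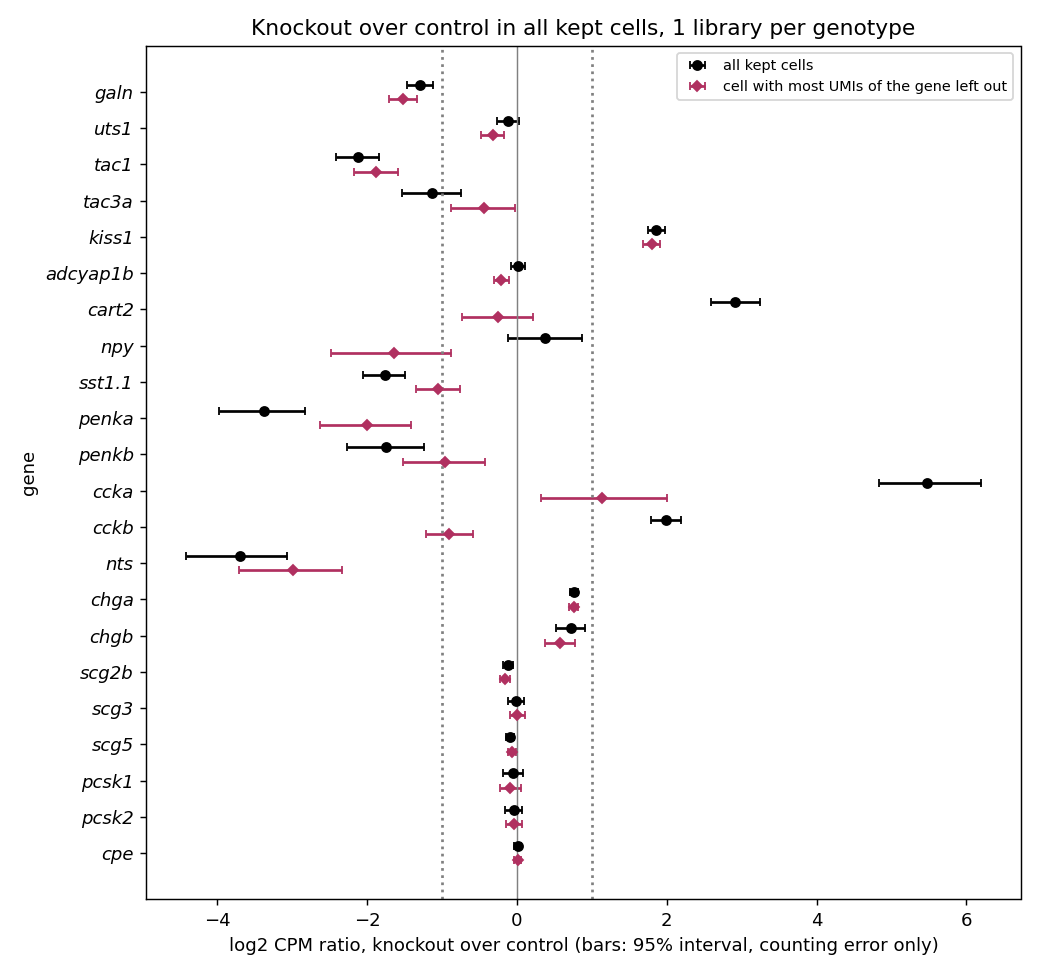
Log2 ratio of knockout over control CPM in all kept cells (x axis) for the 22 genes with at least 100 UMIs (y axis), with all cells (circles) and without the cell with the most UMIs of the gene (diamonds). Bars are 95% intervals for counting error, and dotted lines mark 2-fold. The 2 symbols lie far apart for cart2, ccka and cckb and close together for kiss1, galn and the granins.

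Within cluster 5 and the granule-like classes few of these genes differed 2-fold. In clusters 1, 2, 3 and 4, of 9 genes with at least 100 UMIs none was 2-fold higher (1.09% of genes tested there) and 1 was 2-fold lower (1.18%): sst1.1 at log2 −2.84, from 97 and 13 UMIs at 18.2 and 2.55 CPM. Its free RNA level was lower in the knockout by a like factor, at 609 and 84.0 CPM. None of 7 genes passed in cluster 5 (0.729% higher and 1.36% lower among all genes), none of 6 in clusters 6 and 14 (0.708% and 1.83%), and none of 7 in clusters 7 and 10 (1.61% and 0.929%). The nearest to 2-fold in cluster 5 was pcsk1, at 99.4 and 49.6 CPM from 99 and 23 UMIs, which lay within 2-fold once 0.5 was added to each count.

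Over all cells the granin with the largest difference was chga, at 320 CPM in the control against 543 CPM in the knockout over all cells (log2 0.76, 0.71 to 0.82), under 2-fold. In granule-like clusters 1, 2, 3 and 4 the levels were 504 and 862 CPM (0.78, 0.71 to 0.85). The ratio was 0.78 in cluster 1, 0.98 in cluster 2, 0.36 in cluster 3 and 0.45 in cluster 4, so each of the 4 was higher in the knockout. Cluster 5 stood at 360 and 643 CPM (0.84, 0.61 to 1.06) and cluster 8 at 0.41 (0.11 to 0.69). In free RNA chga stood at 179 and 280 CPM, higher in the knockout as well, and with free RNA subtracted the ratio over all cells was 0.77. The other granins over all cells were at 0.72 for chgb (0.52 to 0.92), −0.12 for scg2b, −0.01 for scg3 and −0.09 for scg5, and the enzymes at −0.05 for pcsk1, −0.04 for pcsk2 and 0.01 for cpe. In cluster 11, chgb had a log2 ratio of 2.61 (2.18 to 3.06), the largest of the 8 granins and enzymes in the class where each was highest; it rested on 8 rich cells. In cluster 12, scg2b was at 1697 CPM in the control against 2595 CPM in the knockout (0.61, 0.48 to 0.74), and in cluster 11 at 984 and 601 CPM (−0.71, −0.90 to −0.52).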

How the data were processed

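Single-cell 3′ libraries of sorted cells, 1 per genotype, were analysed from the counts that the authors deposited: whole-number UMI counts per gene and barcode for all barcodes, written by Cell Ranger 7.1.0 per the file headers. The submitters' processing notes also name the genome build GRCz11 and Seurat. Groups were taken from the labelled genotype.

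Here barcodes with at least 1000 UMIs, 500 genes and at most 15% mitochondrial UMIs were kept (4091 and 3231). Scrublet's automatic threshold called 0 and 1 doublets, so the top-scoring 0.8% per 1000 cells (134 and 84) were removed, and the number of remaining doublets is unknown. Cells were clustered with scanpy 1.11.5 and python-igraph 0.11.9 (2000 variable genes without the described genes, 30 components, 15 neighbours, Leiden resolution 1). Clusters whose profiles correlated at 0.5 or more by average linkage were merged, and the merged group was then named. From a named group, a cluster was set apart when its leading genes held more markers of another set. A class was named "-like" from at least 5 markers, each 2-fold above other cells in at least 10% of cells, when no other of the 19 marker sets reached 50% as many. Gates asked for 3 UMIs of 2 markers and, except for granule cells, a 4-fold excess. CPM are UMIs per 1000000 UMIs of the same population. Sums carry exact Poisson intervals and ratios exact conditional binomial intervals, at 95%, for counting error only. They treat UMIs as independent, so they understate the error of a peptide carried by a handful of cells. Counts of 2-fold ratios used sums with 0.5 added. A count of 0 was given a limit of 3 counts. Scripts were tested on simulated data. Alternatives covered the cell filter, doublets, free RNA, resolution, gates, thinning, gene minimums and scaling.

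The genes and lists were chosen with earlier results of these data known, and the thresholds for naming, merging, gating, rich cells and splits were set after the data had been seen. Class names are rebuilt here and are not the authors'. Genes with at least 100 UMIs were described by class and the others by counts; of each further list, the 3 most counted genes and the 3 with the highest fold were named.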

Additional observations from a re-analysis of the deposited data

Results flagged for a closer look

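For chga, the knockout over control ratio had opposite signs between classes: log2 0.78 (95% interval 0.71 to 0.85) in granule-like clusters 1, 2, 3 and 4 and 0.84 (0.61 to 1.06) in cluster 5, against −0.30 (−0.51 to −0.09) in granule-like clusters 7 and 10. The difference was not tested, since each genotype had 1 library. Within the latter class the ratio was 0.16 (−0.06 to 0.38) in cluster 7, at 542 and 605 CPM, and 1.25 (0.18 to 2.59) in cluster 10, at 61.9 and 148 CPM. The negative sign of the class was thus not seen in either of its clusters. Cluster 10, with the lower chga level, had 36 control and 257 knockout cells, and cluster 7 had 155 and 284.

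For scg2b, the ratio was 0.19 (0.08 to 0.29) in granule-like clusters 1, 2, 3 and 4 and −0.47 (−0.82 to −0.14) in cluster 5, again not tested. Within the former class, cluster 4 stood at −0.31 (−0.59 to −0.04) and cluster 3 at 0.27 (0.05 to 0.49).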

How the results depend on the processing

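The count of genes with a 2-fold ratio over all cells was 11, and 7 when class levels were weighted by the pooled share of each class, where kiss1 turned to −0.092. Without the top cell of each gene it was 8, the median was −0.23, and cart2 (−0.25) and cckb (−0.90) turned. That count also depended on which of the tied tac3a cells was left out. Without clusters 3 and 10 it was 9, and with genes of at least 20 UMIs it was 14. Leaving out the top cell or clusters 3 and 10 was chosen after the data had been seen. In granule-like clusters 1, 2, 3 and 4 the count of 1 became 0 with at least 2000 UMIs per cell or with free RNA subtracted, 2 at resolution 2 and 4 in gated cells. In cluster 5 the count of 0 became 1 with doublets kept or free RNA subtracted, and in clusters 6 and 14 it became 1 with doublets kept. The excess in cluster 11 turned for npy in the control library alone (log2 −1.95) and for tac3a in gated cells (−2.87). The causes were not tested. The 17 concentrated genes ranged from 12 (gated cells) to 18, the 23 above free RNA from 20 to 23, and the 8 lower than free RNA from 8 to 10. At resolution 0.5 cluster 5 did not exist, and gates gave no value for classes without one. No paired analysis was possible because each genotype had 1 library. In a library taken alone, each of the 17 concentrated genes was at least 4-fold higher in its class except npy and chgb (1.19) in the control, and nts had no value in the knockout. Few cells limit the 8 peptides that peaked in cluster 11, whose levels rest on 1 to 9 rich cells each. They also limit nts in habenula cells, where 4 gated control cells were rich.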
